A study of Rattus norvegicus with 6 samples.

Results

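The 33 genes described here belong to the interferon response and to the antigen processing machinery that interferon controls. They were taken by name: each had to be the only symbol given to a probe set in the array annotation, and where a gene had several such probe sets the one with the highest mean log2 signal over the 6 arrays was used. All 33 were found among 14217 genes in the annotation, and 32 of them passed the filter on low signals that left 10600 genes to be tested. The one that did not pass was Ifih1, a cytoplasmic sensor of double-stranded RNA.

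The samples were whole ovaries of 4-day-old female Sprague-Dawley rats, cultured on floating filters for 48 h. The NT3 group (3 arrays) received recombinant human NT3, a neurotrophin growth factor, at 50 ng/ml, and the control group (3 arrays) received no factor. Each array measured RNA pooled from 2 to 3 ovaries, and the labels call the arrays of a group biological replicates without stating that they came from different animals or litters. The p-values below therefore measure the spread between these samples, and the small number of arrays limits the precision of every value. Signals are the deposited MAS5 intensities on a linear scale, 1 for each probe set and array, and they set a gene's arrays against each other but not 1 gene against another. A log2 fold change is NT3 minus control, so a negative one means a lower signal in NT3-treated ovaries. All 7 oocyte markers and all 7 granulosa cell markers in the annotation passed the filter.

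Type I interferons bind a receptor made of Ifnar1 and Ifnar2, and the kinases Jak1 and Tyk2 on that receptor phosphorylate Stat2. Stat2 and Irf9 are parts of a complex that binds interferon-stimulated response elements in promoters and switches on antiviral genes such as Isg15, Mx1 and the Ifit genes. Interferon gamma acts through its own receptor on Irf1, on the inducible proteasome subunits Psmb8, Psmb9 and Psmb10, and on the peptide transporter Tap1 and Tap2, which supply peptides to MHC class I molecules. Most tissues hold a low basal level of this program.

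Many of these genes varied from array to array in parallel with Isg15, and no difference between NT3-treated and control ovaries passed the test. Isg15, a ubiquitin-like protein that is attached to other proteins after interferon, had signals of 1041.4, 1208.8 and 363.6 in NT3 replicates 1 to 3, against 636.5, 2126.8 and 928.6 in control replicates 1 to 3. The highest signal was that of control replicate 2 and the lowest that of NT3 replicate 3, with the groups overlapping in between. Of the 32 tested genes, 23 had their highest signal on control replicate 2, as did 35.8% of all tested genes. On NT3 replicate 3, 16 of the 32 had their lowest signal, against 16.3% of all tested genes, and 13 showed both, against 7.55%. With control replicate 2 left out, 16 were still lowest on NT3 replicate 3, against 20.0% of all tested genes.

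Control replicate 2 also stood apart in RNA measures that do not involve these genes. The ratio of the 3′ to the 5′ beta-actin probe set was 2.82, 2.91 and 2.78 in NT3 replicates 1 to 3, against 2.42, 6.83 and 2.60 in control replicates 1 to 3, and the ratio for Gapdh was 1.25, 1.25 and 1.21 in NT3 replicates, against 1.09, 1.70 and 1.14 in control replicates. A high ratio accompanies shortened RNA or incomplete copying. The geometric mean signal of 18 spike-in control probe sets was 1638, 1763 and 1541 in NT3 replicates, against 1356, 2007 and 1411 in control replicates. The part of these measures in the high interferon-gene signals of control replicate 2 was not tested. Counts over the 32 genes are given with and without that array, and fold changes of single genes also without it where they then turned sign or moved by over 1.5 times. NT3 replicate 3 lay close to the other NT3 arrays in both ratios. With control replicate 2 left out, every NT3 array exceeded each remaining control array in both ratios and in the spike-in signal. The part of that difference in the comparison without control replicate 2 was not tested.

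The promoters of these genes were searched for the letters of the interferon-stimulated response element. RefSeq promoter windows of the GRCr8 assembly, 250 bases before to 50 bases after the transcription start, were available for 27 of the 33 genes. Isg15, Mx2, Ifit1, Ifit2, Usp18 and Dhx58 had none in that table. A core of the interferon-stimulated response element, GAAA followed after 2 free bases by a second GAAA on either strand, was present in 17 of the 27 windows (63.0%) and in 3.92% of all 33469 windows of the same length. The windows of 3 of the genes with the widest range of signal are printed whole because each holds the element, followed by that of Mx1, which also ranged widely and holds no match. Each runs 5′ to 3′ along the gene, and capitals mark the element, which reads TTTC on the strand shown where it lies antisense to the gene.
Irf7 (chr1:205799974-205800273, minus strand): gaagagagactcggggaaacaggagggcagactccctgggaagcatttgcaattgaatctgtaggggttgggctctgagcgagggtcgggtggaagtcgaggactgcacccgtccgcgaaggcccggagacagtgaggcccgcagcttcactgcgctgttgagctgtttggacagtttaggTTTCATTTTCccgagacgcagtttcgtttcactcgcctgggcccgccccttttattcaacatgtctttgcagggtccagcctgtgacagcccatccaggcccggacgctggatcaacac
Ifit3 (chr1:241527076-241527375, plus strand): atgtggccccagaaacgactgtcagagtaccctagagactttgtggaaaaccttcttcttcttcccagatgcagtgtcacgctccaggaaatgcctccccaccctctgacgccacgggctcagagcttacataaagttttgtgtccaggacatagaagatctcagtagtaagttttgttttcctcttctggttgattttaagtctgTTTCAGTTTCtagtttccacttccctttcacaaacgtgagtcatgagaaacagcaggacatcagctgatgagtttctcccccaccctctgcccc
Rsad2 (chr6:48788071-48788370, minus strand): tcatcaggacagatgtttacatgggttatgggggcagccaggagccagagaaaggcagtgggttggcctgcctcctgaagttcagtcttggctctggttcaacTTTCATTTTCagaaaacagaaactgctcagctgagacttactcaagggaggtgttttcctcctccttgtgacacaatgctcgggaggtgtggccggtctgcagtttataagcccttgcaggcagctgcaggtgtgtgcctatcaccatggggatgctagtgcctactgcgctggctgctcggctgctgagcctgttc
Mx1 (chr11:50294557-50294856, minus strand): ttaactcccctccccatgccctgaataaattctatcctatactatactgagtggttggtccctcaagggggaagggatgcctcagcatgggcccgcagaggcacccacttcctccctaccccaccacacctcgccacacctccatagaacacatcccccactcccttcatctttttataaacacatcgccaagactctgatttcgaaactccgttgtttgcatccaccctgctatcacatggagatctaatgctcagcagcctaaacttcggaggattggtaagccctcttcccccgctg
In the Irf7 window the element lies at bases -69 to -60 and in the Ifit3 window at bases -44 to -35, counted from the transcription start. In the Rsad2 window it lies further upstream, at bases -147 to -138. Lack of a match in the Mx1 window says only that these letters are absent from these 300 bases.

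The element lay wholly in the 100 bases before the start in 12 of the 17 windows, and in Psmb8 it crossed the start. Oas1a, Bst2 and Tapbp each held 2 overlapping copies, so that GAAA occurs 3 times in a row, and Psmb10 held 2 separate copies. The stretches around the element are given for genes of the antiviral and antigen-processing branches, with 10 bases on each side.
Oas1a (chr12:41330415-41330450, plus strand): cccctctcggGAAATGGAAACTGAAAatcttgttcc
Bst2 (chr16:18255073-18255108, minus strand): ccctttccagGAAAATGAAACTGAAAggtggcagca
Tapbp (chr20:4967878-4967913, minus strand): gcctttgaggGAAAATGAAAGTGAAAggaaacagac
Psmb10 (chr19:50743290-50743319, minus strand): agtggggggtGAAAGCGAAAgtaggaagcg
Psmb8 (chr20:4657016-4657045, minus strand): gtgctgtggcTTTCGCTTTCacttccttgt
Tap1 (chr20:4668645-4668674, minus strand): cggtggctgcTTTCGGTTTCttcttcctct
Tap2 (chr20:4652318-4652347, minus strand): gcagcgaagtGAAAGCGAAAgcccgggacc
Eif2ak2 (chr6:21941128-21941157, plus strand): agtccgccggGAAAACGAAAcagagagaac
The sequences show the same core in front of an antiviral synthetase (Oas1a), a kinase (Eif2ak2) and the peptide-loading genes. A second motif, TTCNNNGAA, known as the gamma-activated site, was found in 7 of the 27 windows (25.9%) against 8.87% of all windows. The more general promoter motifs CCAAT (9 of 27, 33.3%, against 37.5%) and TATAAA (5 of 27, 18.5%, against 14.2%) had shares nearer to those of all windows. All motifs were searched on both strands, and TTCNNNGAA reads the same on each. A match is a description of the letters and not evidence that a factor binds there.

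**Figure D1:**
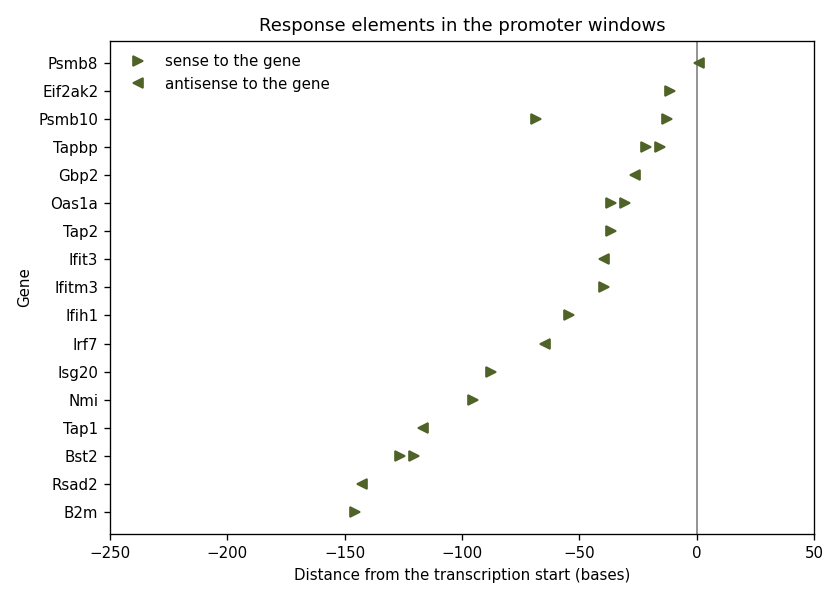
Position of each match to the response element core in the promoter windows of 17 genes, as the distance of its centre in bases from the transcription start (vertical line). Triangles point right where the match is sense to the gene and left where it is antisense, and in 12 genes a match lies wholly within the 100 bases before the start.

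The receptor subunits did not follow the Isg15 pattern. Ifnar2, the subunit that binds interferon with high affinity, had signals of 331.9, 319.9 and 286.1 in NT3 replicates 1 to 3, against 263.0, 245.6 and 227.1 in control replicates 1 to 3. The 3 NT3 signals all exceeded the 3 control signals, the means being 313 ± 23.7 in NT3 and 245 ± 18.0 in control ovaries (SD, n = 3 each). The log2 fold change was 0.35 ± 0.13 (SE, 95% interval 0.061 to 0.64), with an unadjusted p of 0.0228 in the limma fit and an adjusted p of 1.00. Without control replicate 2 the log2 fold change was 0.35 as well. Ifnar2 was the 1 gene of 32 with an unadjusted p under 0.05, against 1.17% of all tested genes. It was also the 1 gene whose NT3 signals all exceeded the control signals, against 2.41% of all tested genes. A second Ifnar2 probe set gave 281.3, 289.6 and 217.2 in NT3 replicates, against 233.3, 230.4 and 242.2 in control replicates, with groups that overlapped and a log2 fold change of 0.15.

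Ifnar1, the other receptor chain, had signals of 208.0, 182.4 and 187.9 in NT3 replicates, against 230.4, 104.8 and 194.2 in control replicates. The signal of control replicate 2 was the lowest of the 6, opposite to Isg15. The log2 fold change of 0.20 ± 0.27 became -0.14 without that array. Other Ifnar1 probe sets above the filter were lowest on control replicate 2 (80.7 and 109.1), control replicate 3 (65.0) or NT3 replicate 3 (79.3). The last of these had 99.6 on control replicate 2 and a log2 fold change of -0.17. Ifnar2 and Ifnar1 lie together on chromosome 11 within 138.6 kb (GRCr8, bases 44099574 to 44238206).

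Among the transcription factors, Irf7 had the widest range. Irf7, the factor that amplifies interferon production and is itself induced by interferon, had signals of 761.6, 750.9 and 271.5 in NT3 replicates, against 373.3, 914.0 and 599.0 in control replicates. NT3 replicate 3 was lowest and control replicate 2 highest, a 3.37-fold range, and the log2 fold change of -0.13 ± 0.42 became 0.18 without control replicate 2. Irf1, an activator of interferon gamma targets, had 815.5, 662.2 and 781.7 in NT3 replicates, against 826.5, 840.8 and 720.4 in control replicates, a 1.27-fold range. The groups overlapped, with NT3 replicate 2 lowest, and the log2 fold change of -0.082 ± 0.12 became -0.041 without control replicate 2.

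Irf3, which is activated by phosphorylation and needs no induction, had 443.2, 472.6 and 462.0 in NT3 replicates, against 460.6, 481.8 and 356.2 in control replicates. Irf9, the DNA-binding part of the complex with Stat2, had 261.8, 300.7 and 240.8 in NT3 replicates, against 217.8, 343.7 and 284.5 in control replicates. For both genes the groups overlapped, with log2 fold changes of 0.097 ± 0.14 for Irf3 and -0.056 ± 0.18 for Irf9, and of 0.18 and 0.099 without control replicate 2. Irf9 ranged 1.58-fold over the 6 arrays. Stat2 (0.045 ± 0.17) and Nmi, an interferon-induced adaptor protein (0.084 ± 0.18), overlapped as well, with 0.20 and 0.21 without that array. Second probe sets gave log2 fold changes of -0.034 for Stat2 and -0.059 for Nmi, both of the other sign, and -0.27 for Irf9. Of these 6 genes, 5 were highest on control replicate 2.

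The cytoplasmic RNA sensors gave no common pattern. Ifih1 had 22.1, 42.3 and 32.6 in NT3 replicates, against 52.3, 40.6 and 46.2 in control replicates, with the groups overlapping at signals under or near the filter of 41.3. It was not tested. Dhx58, a regulator of RNA sensing, and Eif2ak2, the kinase PKR that halts translation on double-stranded RNA, had log2 fold changes of -0.067 ± 0.26 and -0.084 ± 0.16. These became -0.0041 and -0.020 without control replicate 2. Eif2ak2 followed Isg15, highest on control replicate 2 and lowest on NT3 replicate 3. Dhx58 did not, being highest on NT3 replicate 3 and lowest on NT3 replicate 2.

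Isg15, Usp18 and Trim25 shared the peak on control replicate 2. Isg15 had the widest range of the 32 genes, 5.85-fold over the 6 arrays and 3.32-fold without control replicate 2. Its means were 871 ± 448 in NT3 and 1231 ± 790 in control ovaries (SD, n = 3 each), its log2 fold change was -0.49 ± 0.51, and this became 0.0035 without control replicate 2. The spread of Isg15 within groups was at the 99.7 percentile of all tested genes. Usp18, the protease that removes Isg15 and damps receptor signalling, had a log2 fold change of -0.21 ± 0.19, and Trim25, a ubiquitin and Isg15 ligase, of -0.17 ± 0.22. Both had their highest signal on control replicate 2, and without it their log2 fold changes were -0.030 and 0.092.

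Of the 12 antiviral effectors, 8 were highest on control replicate 2 and 8 lowest on NT3 replicate 3, with ranges between 1.24-fold and 3.36-fold. Mx1, a dynamin-like GTPase that traps viral components, had signals of 390.9, 400.1 and 143.8 in NT3 replicates, against 272.3, 455.5 and 284.1 in control replicates. Its relative Mx2 had 366.4, 462.4 and 249.0 in NT3 replicates, against 299.9, 598.6 and 352.3 in control replicates. Both genes were lowest on NT3 replicate 3 and highest on control replicate 2, and the groups overlapped. The log2 fold changes were -0.22 ± 0.38 for Mx1 and -0.19 ± 0.29 for Mx2, and without control replicate 2 they were 0.021 and 0.099. The Mx genes lie on chromosome 11 within 130.3 kb (GRCr8, bases 50269056 to 50399373).

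The Ifit genes, whose proteins bind viral RNA, lie within 51.5 kb of chromosome 1 (GRCr8, bases 241515735 to 241567262) and yet differed among themselves. Ifit3 had 130.0, 155.5 and 50.6 in NT3 replicates, against 102.1, 170.0 and 102.3 in control replicates. Ifit2 had 220.8, 214.4 and 124.8 in NT3 replicates, against 174.6, 246.5 and 201.0 in control replicates. Both followed Isg15, lowest on NT3 replicate 3 and highest on control replicate 2, with overlapping groups. Ifit1 had 136.4, 121.8 and 153.6 in NT3 replicates, against 159.5, 107.7 and 193.1 in control replicates, so that control replicate 2 was its lowest array. The log2 fold changes were -0.27 ± 0.40 for Ifit3, -0.18 ± 0.24 for Ifit2 and -0.13 ± 0.23 for Ifit1. They became -0.021, -0.051 and -0.36 without control replicate 2. A second Ifit2 probe set had 144.8, 108.0 and 56.7 in NT3 replicates, against 97.1, 88.7 and 96.5 in control replicates. It was lowest on NT3 replicate 3 but highest on NT3 replicate 1, not on control replicate 2. Its log2 fold change was 0.031.

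Rsad2 (viperin), a radical SAM enzyme that blocks viral replication, had 265.9, 333.3 and 200.8 in NT3 replicates, against 285.4, 520.2 and 261.1 in control replicates. Isg20, an RNA exonuclease, had 126.3, 187.0 and 78.2 in NT3 replicates, against 97.8, 167.4 and 135.6 in control replicates. Rsad2 was highest on control replicate 2 and Isg20 on NT3 replicate 2, and both were lowest on NT3 replicate 3, with overlapping groups. The log2 fold change of Rsad2 was -0.37 ± 0.28 and became -0.064 without control replicate 2. That of Isg20 was -0.088 ± 0.32 and became 0.091. With the replicate number as a block, Rsad2 had an unadjusted p of 0.028 in the limma fit and its adjusted p did not pass.

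Oas1a, an enzyme that makes the 2-5A messenger for RNase L, is named here because its groups were seen not to overlap. It had 371.2, 378.4 and 380.5 in NT3 replicates, against 411.4, 638.4 and 381.2 in control replicates. The nearest arrays, NT3 replicate 3 and control replicate 3, differed by less than 1 signal unit, and the log2 fold change of -0.30 ± 0.19 became -0.072 without control replicate 2. Oas1a was the 1 gene of 32 with every NT3 array below every control array, against 3.33% of all tested genes. Its relative Oasl had a log2 fold change of -0.19 ± 0.23, which became 0.049 without control replicate 2.

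Bst2 (tetherin), which holds budding virus particles at the cell surface, had 3213.0, 3298.6 and 4022.3 in NT3 replicates, against 4106.7, 2810.5 and 4177.5 in control replicates. Ifitm3, which restricts virus entry through endosomes, had 5563.1, 5612.9 and 4525.1 in NT3 replicates, against 4770.8, 5218.5 and 5391.3 in control replicates. Bst2 was lowest on control replicate 2, the reverse of most antiviral genes, while Ifitm3 ranged only 1.24-fold. Their log2 fold changes were -0.059 ± 0.16 and 0.025 ± 0.11. Gbp2, a GTPase induced by interferon gamma, had 0.066 ± 0.16. These log2 fold changes became -0.25 for Bst2, 0.038 for Ifitm3 and 0.18 for Gbp2 without control replicate 2.

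**Figure D2:**
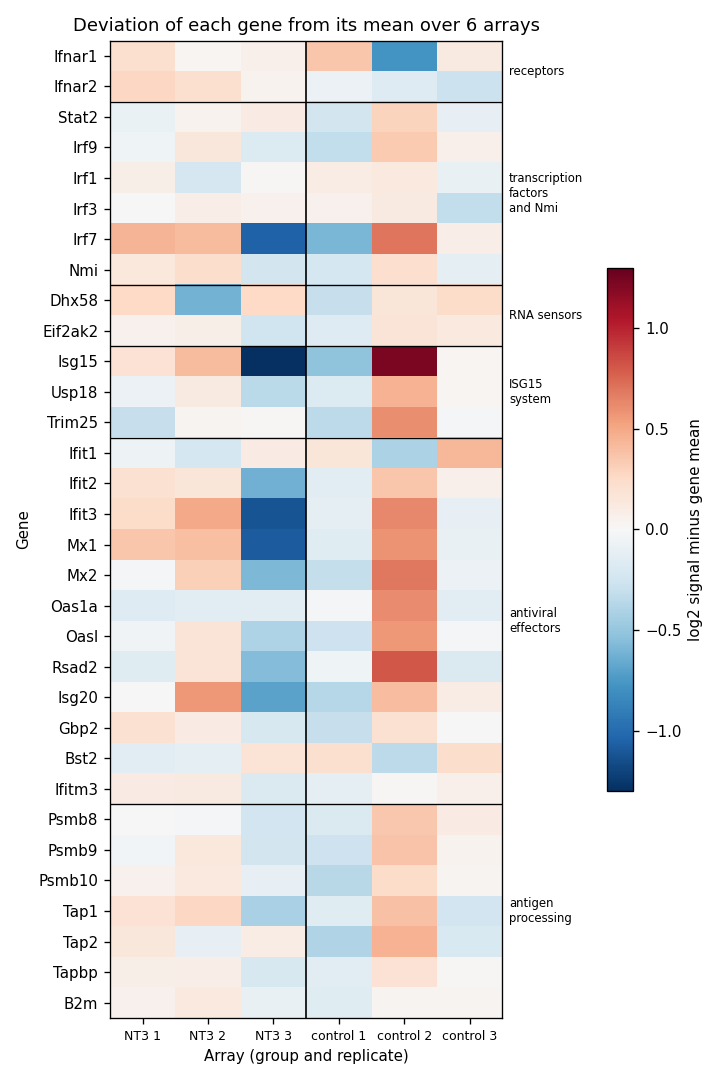
Deviation of each of the 32 tested genes from its own mean log2 signal over the 6 arrays (columns, NT3 arrays left of control arrays), with red above and blue below that mean and genes grouped by role. The column of control replicate 2 is mostly red and that of NT3 replicate 3 mostly blue. Signals were above the mean there in 28 and 10 of the 32 genes, against 6286 and 5108 of all 10600 tested genes.

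The plot of deviations shows the common high array, control replicate 2, and the common low array, NT3 replicate 3. The median deviation of the 32 genes was 0.056, 0.12 and -0.21 in NT3 replicates 1 to 3, against -0.17, 0.35 and 0.018 in control replicates 1 to 3, on the log2 scale. Over all tested genes the largest median deviation was 0.064, on control replicate 2. For the 12 antiviral effectors the medians were -0.013, 0.16 and -0.48 in NT3 replicates, against -0.13, 0.48 and -0.0094 in control replicates.

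**Figure D3:**
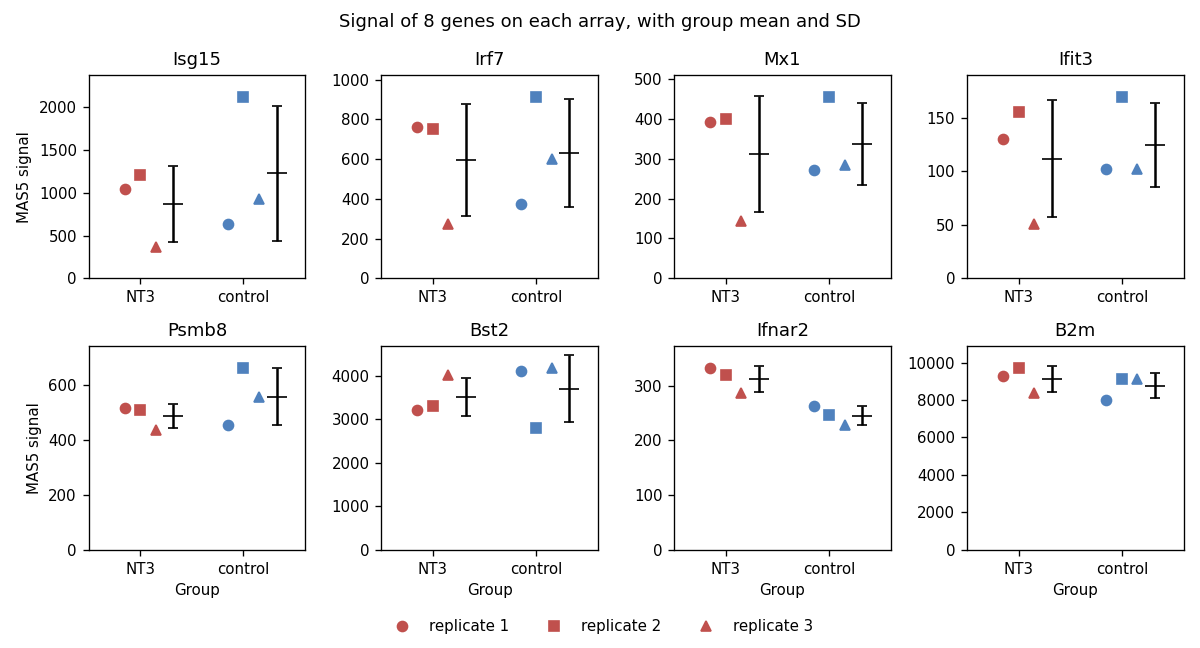
MAS5 signal (linear, y axis) of 8 genes on each array, with NT3 in red left of control in blue, marker shapes for the replicate number and bars for the group mean and SD (n = 3 each). Isg15, Irf7, Mx1 and Ifit3 scatter widely within both groups, Ifnar2 separates the groups, and B2m ranges 1.21-fold over the 6 arrays.

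Of the 7 antigen-processing genes, 6 were highest on control replicate 2, 3 were lowest on NT3 replicate 3 and 4 on control replicate 1 (Psmb9, Psmb10, Tap2 and B2m), with ranges between 1.21-fold and 1.79-fold. The inducible proteasome subunit Psmb8 had 515.3, 508.4 and 436.2 in NT3 replicates, against 453.3, 659.9 and 555.9 in control replicates. Psmb9 had 615.2, 694.3 and 534.0 in NT3 replicates, against 522.0, 814.3 and 649.0 in control replicates. Psmb10 had 624.9, 658.2 and 558.6 in NT3 replicates, against 469.8, 708.4 and 616.8 in control replicates. All 3 subunits were highest on control replicate 2, and their groups overlapped. The log2 fold changes were -0.18 ± 0.15 for Psmb8, -0.091 ± 0.17 for Psmb9 and 0.054 ± 0.16 for Psmb10, and without control replicate 2 they were -0.049, 0.070 and 0.19. Their constitutive counterparts Psmb7 and Psmb5 had -0.081 ± 0.10 and -0.064 ± 0.097, and -0.015 and -0.020 without that array.

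Tap1 and Tap2 form the transporter that carries peptides into the endoplasmic reticulum. Tap1 had 154.2, 164.2 and 101.3 in NT3 replicates, against 121.5, 176.5 and 114.2 in control replicates. Tap2 had 70.8, 59.2 and 68.0 in NT3 replicates, against 48.7, 87.4 and 55.7 in control replicates. Both were highest on control replicate 2, and their log2 fold changes were 0.022 ± 0.24 and 0.089 ± 0.26, against 0.22 and 0.34 without that array. Tap2, Psmb8, Tap1 and Psmb9 lie within 36.2 kb of chromosome 20 (GRCr8, bases 4638257 to 4674421), where 408 bases separate Tap1 from Psmb9.

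Tapbp (tapasin), which bridges the transporter to MHC class I, had 218.3, 219.9 and 179.3 in NT3 replicates, against 186.7, 236.3 and 208.8 in control replicates. B2m, the light chain of MHC class I, had 9269.9, 9704.7 and 8367.2 in NT3 replicates, against 7987.5, 9142.3 and 9143.0 in control replicates. Neither separated the groups, and the log2 fold changes were -0.033 ± 0.15 for Tapbp and 0.058 ± 0.10 for B2m, and 0.054 and 0.090 without control replicate 2. For the 7 antigen-processing genes the median deviation was 0.056, 0.12 and -0.21 in NT3 replicates, against -0.19, 0.35 and 0.036 in control replicates.

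Set against control ovaries as a group, NT3-treated ovaries gave 0 of the 32 genes with an adjusted p under 0.05 in the limma fit, where 0 of 18625 probe sets passed (0%) and 240 had an unadjusted p under 0.05. By sign, 21 genes had lower and 11 higher signals in NT3, against 52.6% of all tested genes lower. Without control replicate 2, 12 had lower and 20 higher signals, against 47.5% of all tested genes lower. The sign of 11 genes turned, 10 of them from lower to higher and 1, Ifnar1, from higher to lower. NT3 replicate 2, the array of the same number, stayed in that comparison. It was then highest for 18 of the 32 genes, against 2611 of all 10600 tested genes. With both arrays numbered 2 left out, the sign of 7 genes turned. The median log2 fold change was -0.083 with 6 arrays, beside -0.0075 over all tested genes, and 0.052 without control replicate 2, beside 0.0085. Without that array 1 gene had an unadjusted p under 0.05, against 2.69% of all tested genes.

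**Figure D4:**
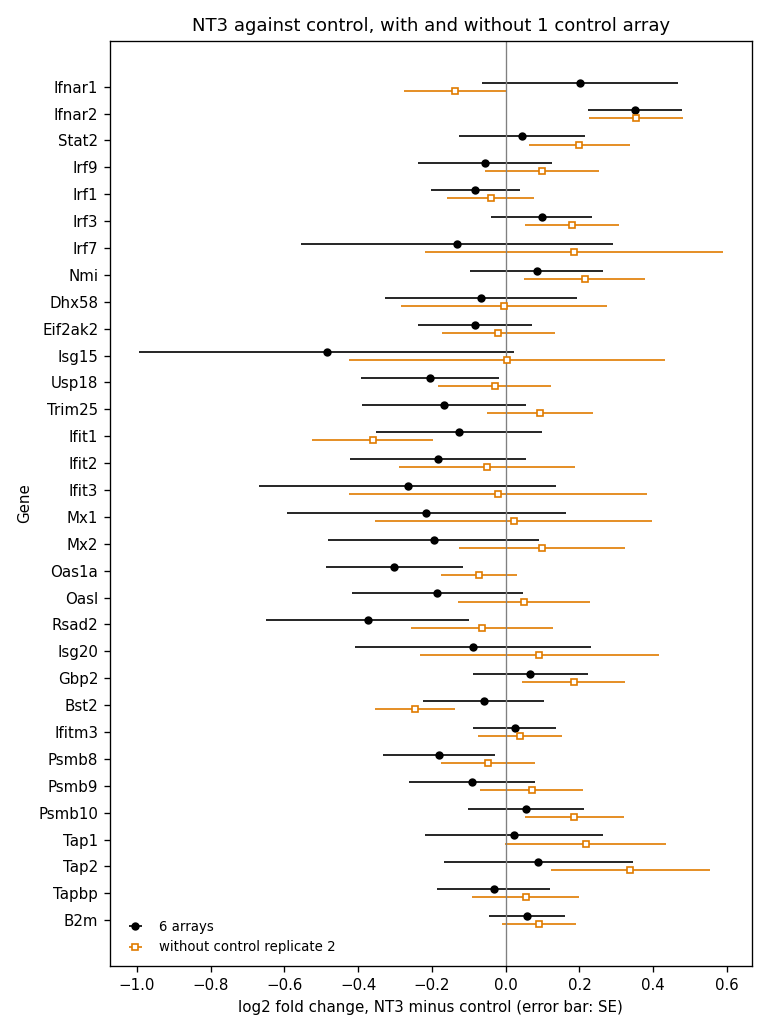
Log2 fold change (x axis, NT3 minus control, bars show the SE) of the 32 tested genes in the fit with 6 arrays (black circles) and without control replicate 2 (orange squares). The 6-array values run from -0.49 (Isg15) to 0.35 (Ifnar2), and 11 genes change side of 0 when the array is left out.

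The spread within groups lay above the median of all tested genes for 26 of the 32 genes. A range of at least 2-fold over the 6 arrays was seen in 8 of the 32 genes (Isg15, Irf7, Ifit3, Mx1, Rsad2, Mx2, Isg20 and Ifnar1), against 7.98% of all tested genes, and in 5 without control replicate 2, against 3.94%. The median range was 1.73-fold, beside 1.40-fold over all tested genes, and 1.39-fold without control replicate 2, beside 1.28-fold. At the narrow end were B2m (1.21-fold), Ifitm3 (1.24-fold), Irf1 (1.27-fold) and Tapbp (1.32-fold).

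Likeness to Isg15 was described by Pearson's r of log2 signals over the 6 arrays, which share their scaling and include the control replicate with the high 3′ to 5′ ratio. Of the other 31 genes, 17 had an r above 0.8, against 7.94% of all other tested genes. The highest were Mx2 (0.975), Tapbp (0.971), Oasl (0.964), Usp18 (0.961), Ifit2 (0.960) and Irf7 (0.957). An r below 0 was found for 6 genes, with Bst2 (-0.81), Ifnar1 (-0.68) and Ifit1 (-0.63) the lowest. With control replicate 2 left out, 10 genes were below 0, with Ifnar1 at -0.085, Bst2 at -0.63 and Irf1 at -0.49. Without control replicate 2 the count above 0.8 was again 17, against 6.86%, and without NT3 replicate 3 it was 20, against 15.6%. The median r over all pairs of the 32 genes was 0.559 and became 0.270 without control replicate 2.

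The response element and this likeness overlapped in part. Of the 16 tested genes with the element, 10 had an r above 0.8 with Isg15, and their median r was 0.880. Of the 10 tested genes whose window held no match, 4 did, with a median of 0.506. Without control replicate 2 the counts were 11 and 3, with medians of 0.835 for genes with the element and 0.086 for those without. Bst2 holds 2 overlapping copies and had the lowest r of all, while Mx1, with no match, had 0.941. Psmb9 counts among the genes without a match, but the Tap1 match lies in the 408 bases between Tap1 and Psmb9. The split thus depends on where the windows end.

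Other genes of the pathway, in lists drawn up by function, gave 0 genes with an adjusted p under 0.05 in any list. The counts by sign below, for these lists and for the cell type markers, stand beside 52.6% of all tested genes lower in NT3. Without control replicate 2 that share was 47.5%. Of 9 tested receptors, kinases and regulators, 8 had higher and 1 lower signals in NT3, with a median log2 fold change of 0.053, the largest being those of Il10rb (0.14), Jak2 (0.11) and Ifnlr1 (0.11). Leaving out control replicate 2 gave 5 higher and 4 lower and a median of 0.024, with Jak2 at -0.061 and Ifnlr1 at 0.059. The 3 interferon genes in the annotation, Ifnb1, Ifng and Ifnk, were all below the filter, with signals of 0.7 to 17.9. Of 10 sensors and adaptors, 6 were higher and 4 lower, led by Tlr7 (-0.28), Traf3 (-0.17) and Traf6 (-0.11). These counts were the same without control replicate 2, where Traf3 had -0.046. Of 6 further transcription factors, 2 were higher and 4 lower, led by Rela (-0.20), Irf8 (-0.13) and Irf2 (-0.11). Leaving out control replicate 2 gave 4 higher and 2 lower, with Rela at 0.0095, Irf8 at -0.034 and Irf2 at 0.12.

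The largest list held 47 other tested interferon-induced genes, with 15 higher and 32 lower in NT3 and a median log2 fold change of -0.022. Without control replicate 2, 32 were higher and 15 lower, and the median was 0.062. The median deviation of these genes was 0.019, 0.16 and -0.19 in NT3 replicates, against -0.12, 0.20 and -0.029 in control replicates, the same high and low arrays as for the 32 genes. Trim14, an adaptor in RNA sensing, had the lowest p, with signals of 34.4, 41.6 and 35.5 in NT3 replicates, against 58.0, 68.6 and 52.1 in control replicates. Its NT3 signals lay around or below the filter of 41.3, which it passed through its control signals, so that the gap between the groups is not read as a difference. The log2 fold change was -0.68 ± 0.23 with an adjusted p of 1.00 in the limma fit. Cxcl11, a T cell chemokine, and Herc6, an Isg15 ligase in mice, had -0.51 ± 0.46 and -0.35 ± 0.38. Herc6 also lay around the filter of 41.3, with 34.3, 68.4 and 24.1 in NT3 replicates, against 40.3, 48.9 and 59.8 in control replicates.

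Of 27 other antigen-presentation genes, 10 were higher and 17 lower in NT3, with a median log2 fold change of -0.028. When control replicate 2 was left out the median became 0.018, with 14 higher and 13 lower. Cd1d1, which presents lipids, had 148.7, 173.7 and 207.9 in NT3 replicates, against 141.3, 104.0 and 128.5 in control replicates. All its NT3 signals exceeded the control signals, as did those of Ctss, against 2.41% of all tested genes. The log2 fold change of Cd1d1 was 0.50 ± 0.19, with an unadjusted p of 0.0251 and an adjusted p of 1.00 in the limma fit. Cd1d1 was the 1 gene of the 27 with an unadjusted p under 0.05, against 1.17% of all tested genes. The class II genes RT1-Ba and RT1-Db1 had -0.48 ± 0.61 and -0.40 ± 0.35, and -0.46 and -0.13 without control replicate 2.

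Leukocytes are among the cells that express interferon-induced genes, and in whole-organ RNA fewer cells of a type and less RNA per cell cannot be told apart. Of 28 leukocyte markers in the annotation, 19 were tested, 14 with higher and 5 with lower signals in NT3, at a median log2 fold change of 0.13, or 0.035 without control replicate 2. Their summed signal lay between 5574 and 6223 in NT3 replicates, against 5347 to 5923 in control replicates, and control replicate 2 had the lowest sum. Cd163, Itgam, Cd3e, Cd8a, Cd4, Nkg7, Cd79b, Ms4a1 and Flt3 were below the filter, and none was listed at 0. The median deviation of the tested leukocyte markers was -0.19 on control replicate 2, where the 32 genes had 0.35, so the 2 sets lay on opposite sides of their means there. Of 7 endothelial markers, 1 was higher and 6 lower in NT3, with or without control replicate 2, against 52.6% or 47.5% of all tested genes lower. All 7 tested stroma and theca markers had higher signals in NT3, or 5 with 2 lower when control replicate 2 was left out, and the summed signal of the 8 in the annotation was 19325 to 21612 in NT3 replicates, against 18306 to 18681 in control replicates. The 8 markers of epithelium, oviduct and mesonephros had median deviations of -0.017, 0.37 and -0.13 in NT3 replicates, against -0.27, 0.12 and -0.13 in control replicates. Their summed signal was 7567, 11175 and 7597 in NT3 replicates, against 7161, 11203 and 8337 in control replicates. It was high on NT3 replicate 2 and control replicate 2, as the median of the 32 genes was. Krt19 alone made up most of that sum, with 7191.2 on NT3 replicate 2 and 7363.3 on control replicate 2. Of the 8 markers, 3 were highest on control replicate 2 and 1, Wfdc2, was lowest there. The part of these markers in the values of the 32 genes was not tested.

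**Figure D5:**
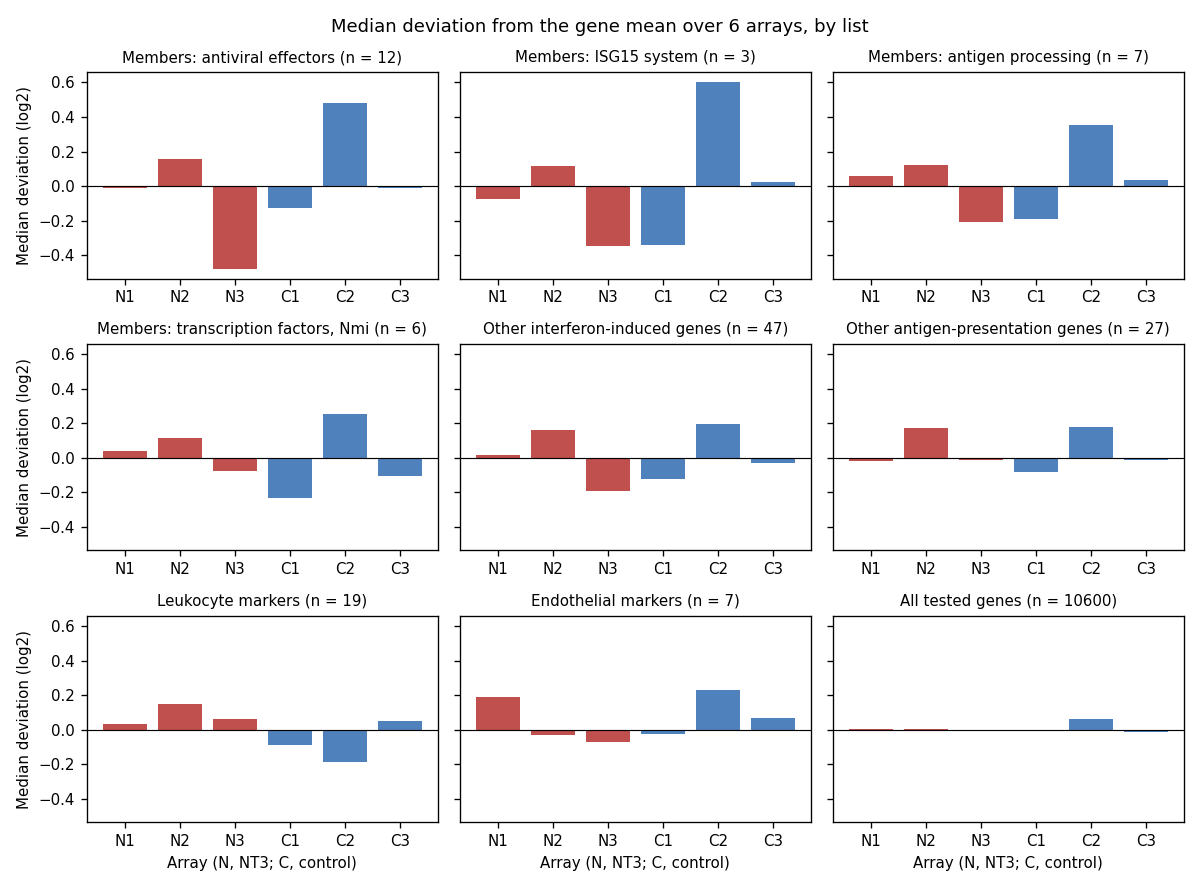
Median deviation from the gene mean over the 6 arrays (log2, y axis) on each array for 4 groups of the 32 genes, 2 other pathway lists, 2 marker lists and all tested genes, with NT3 arrays (N1 to N3, red) left of control arrays (C1 to C3, blue). The antiviral effectors reach 0.48 on control replicate 2 and -0.48 on NT3 replicate 3, while leukocyte markers are at -0.19 on control replicate 2 and all tested genes at 0.064.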

How the data were processed

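The deposited values are linear intensities, 1 for each probe set on each array, which the authors made with MAS5 per the submitters' processing notes (version not given in the sources used here). After 57 control probe sets were removed, intensities were taken to log2 with a floor of 0.1, which applied to 5 probe sets holding a 0. Those with a mean log2 signal below the 40th percentile (5.37, a signal of 41.3) were left out of the fit. NT3 was compared with control over 18625 probe sets with limma 3.58.1 in R 4.3.3 (lmFit, eBayes with an intensity trend, 2-sided, Benjamini-Hochberg adjustment at 0.05), and the script was tested on simulated data.

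In the array annotation 20826 probe sets had 1 symbol, 436 several and 9780 none, and 20758 Entrez identifiers matched the RefSeq genes of GRCr8, with 0 symbols changed. Promoter sequences and coordinates are RefSeq's, of GRCr8. Detection calls were not used here.

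The members and lists were chosen with earlier results of these data known. Values on every array were given for members with an unadjusted p under 0.05, the 8 with the widest and the 4 with the narrowest range, the 4 with the highest mean signal and every member of the Ifit, Mx, Irf, Tap, Psmb and Ifnar families. Other members could be named with their fold change, and up to 3 genes of each other list were named by the size of theirs.

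Both groups carry replicate numbers 1 to 3 in the titles. Deviations from the group means correlated at 0.230, 0.247 and 0.222 for equal numbers and at most 0.0286 for unequal ones. The deviations of a group add up to 0, so values above 0 for equal numbers push down those for unequal numbers. The gap between equal and unequal numbers is thus partly fixed by the arithmetic. The numbers were taken to pair the samples, from the data and not from a statement in the labels. The fit without the block was kept as the main one. Every SE, interval and p-value in the Results is from that fit unless the block is named, and so leaves the pairing out. With the block the SE was 0.33 for Isg15 and 0.16 for Mx2, against 0.51 and 0.29 without it. For Tap2 it was 0.26 in both fits. Alternatives were this block, other scalings, filters, array weights, a fit without the variance trend, an offset of 16, arrays left out and means over a gene's probe sets. Likeness to Isg15 and the range of signals without 1 array were added after seeing the data.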

Additional observations from a re-analysis of the deposited data

How the results depend on the processing

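No member and, with 1 exception, no probe set had an adjusted p under 0.05 in the limma fit under any of the 17 alternatives. With the replicate block and control replicate 2 left out, 4 probe sets passed, none of them a member, and the lowest adjusted p of a member was 0.832. With the replicate block alone 0 probe sets passed, 401 had an unadjusted p under 0.05 against 240 without it, the members with such a p were Ifnar2 and Rsad2, and the median log2 fold change stayed at -0.083; the block changed no call. The number of members lower in NT3 was 21. It was 11 with array weights, in which control replicate 2 had a weight of 0.252, and between 10 (without NT3 replicate 3) and 28 (without control replicate 1) when single arrays were left out, with 12 without control replicate 2. The median log2 fold change then lay between -0.21 and 0.060. The number with a range of at least 2-fold was 8, and 5 without control replicate 2. Quantile normalization turned the sign of 1 member, and centring, the offset, the filters, the variance trend and the mean over probe sets turned none. Ifnar2, Oas1a, Rsad2, Psmb8 and Usp18 kept their sign under every alternative run. Ifih1 lay below the filter on low signals. The 60th percentile filter left 30 members, and the mean over probe sets left 31. Of 13 other probe sets of these genes above the filter, 9 had the sign of the one used. Depth has no counterpart here: signal over background limits the low genes, and 3 arrays a group limit all.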

Other observations

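The MHC class II genes, which interferon gamma induces through Ciita, had another order of arrays than the interferon response genes. Cd74, the invariant chain, had 392.2, 1096.5 and 926.0 in NT3 replicates 1 to 3, against 642.6, 1282.2 and 968.7 in control replicates 1 to 3. RT1-Da had 230.0, 780.2 and 617.6 in NT3 replicates, against 457.7, 738.9 and 655.0 in control replicates. RT1-Ba had 75.7, 223.0 and 434.3 in NT3 replicates, against 144.6, 282.5 and 491.6 in control replicates. All 3 were lowest on NT3 replicate 1, with control replicate 1 next, where Isg15 was lowest on NT3 replicate 3. Ciita itself was below the filter. Among class I genes, RT1-CE16 had 161.5, 193.3 and 36.4 in NT3 replicates, against 104.7, 149.6 and 59.3 in control replicates, so that both arrays numbered 3 were its lowest.

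A second Mx2 probe set behaved unlike the one used above. It had 274.1, 209.3 and 12.7 in NT3 replicates, against 221.5, 230.6 and 17.7 in control replicates, with both arrays numbered 3 low, 15.5-fold below the other 4 on average. Of 31042 probe sets, 2 had both arrays numbered 3 at least 8-fold below all others with signals of at least 100 there, the other being one for Kcne2. It had 268.5, 199.8 and 23.3 in NT3 replicates, against 335.6, 201.6 and 7.0 in control replicates. No probe set met this rule for the arrays numbered 1 or 2, or for any of the 6 pairs of unequal numbers. The labels do not say what the arrays of 1 number share. A second Dhx58 probe set was low on a single array, with 105.8, 11.1 and 159.9 in NT3 replicates, against 91.3, 153.7 and 109.7 in control replicates.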
